A study of Mus musculus with 4 samples.

Results

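A set of 6 genes that serve the exit of T cells from the thymus and their homing to lymph nodes was followed through single-cell profiles of mouse thymic regulatory T (Treg) cells. They were the sphingosine-1-phosphate receptors S1pr1 and S1pr4, the transcription factor Klf2, the chemokine receptor Ccr7, the integrin chain Itgb7 and the activation antigen Cd69. The members were taken by name, 6 of the 27998 genes in the count table, and each was measured over all 8273 cells.

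A maturing thymocyte stops making CD69, raises KLF2, and under KLF2 makes S1PR1, the receptor that senses sphingosine-1-phosphate in blood and lymph and draws the cell out of the thymus. CD69 binds S1PR1 and takes it off the cell surface, so a cell that has just been signalled through its T cell receptor (TCR) is held back. CCR7, the receptor for CCL19 and CCL21, guides thymocytes into the medulla and later T cells into lymph nodes, while integrin β7, paired with the α4 or αE chain, serves homing to and retention in the gut and other epithelia. S1PR4 is a second lymphocyte receptor for sphingosine-1-phosphate, whose part in thymic exit is less well defined than that of S1PR1.

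All mice were 3 weeks old, on the B6 background, and carried Rag2-Gfp, which labels recently made T cells with GFP, and Foxp3-Thy1a, which puts Thy1.1 on cells that express the Treg factor Foxp3. The 4 samples, 1 per genotype, came from IL2 o/o and IL15 o/o mice, labelled as knockouts, and from IL2 wt/wt and IL15 wt/wt mice, labelled as wild types. Thymic cells sorted as CD4+CD8-Thy1.1+GFP+ were captured in droplets with a 3' chemistry in which each RNA molecule carries a unique molecular identifier (UMI). The sources used here do not say whether animals were pooled. Cell barcodes end in a suffix from 1 to 4, called libraries 1 to 4 below, but no label ties a suffix to a genotype, so knockout and wild type were not compared and no p-value was computed.

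Libraries 1 to 4 held 1609, 2452, 2037 and 2175 cells, with 5717732 to 11274713 UMIs per library and medians of 2501 to 3857 UMIs per cell. Library 3 was the shallowest and stood apart: Il2ra, the IL-2 receptor α chain, was detected in 6.82% of its cells against 32.2 to 39.4% in the other libraries, and it alone held much haemoglobin RNA (Hbb-bs at 942 CPM, UMIs of the gene per 1000000 UMIs, against at most 0.359 CPM elsewhere). Cd3d was detected in 96.4% of all cells and the Treg gene Ikzf2 in 75.7%, whereas Foxp3 itself was at 12.6 to 14.3 CPM and detected in 5.06%. Of markers that other cell types would bring, Csf1r, Itgax and Ncr1 had no UMI in any library, but Nkg7, a granule gene of cytotoxic lymphocytes, was detected in 14.2% of cells (35.0 CPM in library 3 and up to 199.7 CPM elsewhere), Epcam in 5.10% and Cd79b in 4.69%. Cd4 was at 134 to 161 CPM and Cd8a at 10.3 to 22.0 CPM. Across libraries 27 of 8246 distinct barcodes occurred more than once.

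In the GRCm38 annotation (GENCODE M21), S1pr1 lies on the minus strand of chromosome 3 (115710433 to 115715072), S1pr4 on the minus strand of chromosome 10 (81497747 to 81500132) and Klf2 on the plus strand of chromosome 8 (72319033 to 72321656). Ccr7 lies on the minus strand of chromosome 11 (99144196 to 99155077), Itgb7 on the minus strand of chromosome 15 (102215995 to 102231944) and Cd69 on the minus strand of chromosome 6 (129267325 to 129275436). Upstream sequences were read for CACCC and GC-rich boxes, which Krüppel-like factors bind. RefSeq promoter windows (GRCm38.p6) matched 3 of the 6 genes, S1pr4, Klf2 and Itgb7, and these are printed for that reason. S1pr1, Ccr7 and Cd69 have no entry. Each line shows the first 220 bases of the window, 5′ to 3′ on the gene's strand, starting 250 bases before the RefSeq start of the gene, which is not the GENCODE start given above. Capitals mark CACCC and GGGCGG on either strand (GGGTG and CCGCCC when read from the other strand).
S1pr4, chr10:81500168-81500387, minus strand: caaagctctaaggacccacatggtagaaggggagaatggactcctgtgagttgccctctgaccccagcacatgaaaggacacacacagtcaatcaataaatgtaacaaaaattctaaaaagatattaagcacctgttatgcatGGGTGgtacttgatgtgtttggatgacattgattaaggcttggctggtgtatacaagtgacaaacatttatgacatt
Klf2, chr8:72318812-72319031, plus strand: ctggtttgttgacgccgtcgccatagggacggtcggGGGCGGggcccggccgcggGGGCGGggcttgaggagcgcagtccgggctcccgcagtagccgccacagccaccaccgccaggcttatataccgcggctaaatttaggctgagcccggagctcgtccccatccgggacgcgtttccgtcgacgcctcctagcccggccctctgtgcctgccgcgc
Itgb7, chr15:102231966-102232185, minus strand: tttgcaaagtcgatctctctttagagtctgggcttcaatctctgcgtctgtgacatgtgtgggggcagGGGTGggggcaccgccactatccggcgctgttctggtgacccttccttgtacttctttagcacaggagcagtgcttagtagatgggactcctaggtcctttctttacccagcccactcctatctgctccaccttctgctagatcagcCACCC
The S1pr4 window held 1 CACCC box, at base 144 on the other strand, and the Itgb7 window held 2, at bases 69 and 216. CACCC occurred in 47.2% of 27025 promoter windows of that length, so its presence does not set these genes apart. The Klf2 window held no CACCC and 2 GGGCGG boxes, at bases 37 and 56, a motif found in 28.5% of windows. Its GC content was 71.4%, against 40.9% for S1pr4, 54.5% for Itgb7 and a median of 51.8% over all windows. Neither GTAAACA, a FOXO-type motif (2.74% of windows), nor TGANTCA, an AP-1-type motif (6.24%), occurred in the 3 windows on either strand.

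Most of the 6 genes differed little between the 4 libraries. Klf2, which switches on S1pr1, stood at 1136, 1352, 1264 and 1215 CPM in libraries 1 to 4. S1pr1 stood at 173, 181, 228 and 181 CPM, with library 3 highest and the other 3 within overlapping counting intervals. S1pr4 followed another order, at 140, 164, 123 and 145 CPM, with library 3 lowest, although its interval overlapped that of library 1.

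Ccr7 had the widest spread, at 614, 616, 814 and 536 CPM, and library 3 over library 4 gave 1.52-fold. It was the only one of the 6 genes whose highest library was at least 1.5-fold above its lowest, a spread that 27.8% of 8071 genes with at least 200 UMIs reached. The ratio was 1.45 to 1.49 when mitotic cells or cells with Il2ra were left out, when only G1-table cells were used or when each cell counted alike. Cd69 was likewise highest in library 3, at 165, 161, 230 and 177 CPM. Itgb7 ran the other way, at 278, 340, 260 and 308 CPM, highest in library 2 and lowest in library 3 with library 1 overlapping it.

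The share of cells with at least 1 UMI went with depth and gave another order for S1pr1, at 51.4, 52.1, 41.9 and 45.8% in libraries 1 to 4, although library 3 had the highest CPM. When every cell was thinned to 1811 UMIs, which left out 826 shallower cells (52, 135, 415 and 224 in libraries 1 to 4), these shares became 29.3, 31.2, 30.9 and 30.5%. The thinned levels of S1pr1 were 215 to 228 CPM with overlapping intervals in all libraries, so no difference was detectable among the cells kept. With no cell left out and each cell counted alike, library 3 was still highest, at 226, 228, 270 and 225 CPM. Ccr7 was still highest in library 3 and lowest in library 4 after thinning, with 677, 677, 853 and 560 CPM and 61.8, 61.8, 71.0 and 56.1% of cells positive. At equal depth Klf2 was detected in 75.8 to 82.3% of cells per library, Itgb7 in 37.4 to 44.4%, Cd69 in 23.4 to 28.4% and S1pr4 in 20.5 to 27.1%.

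Free RNA from broken cells can add to such shares. For comparison, shares were read in 79 cells with 5 or more UMIs of double-positive thymocyte markers, cells at a stage that precedes egress (median 2124 UMIs). The 8194 other cells were deeper (median 3147.5 UMIs). How much of the signal in the 79 cells was free RNA was not tested. S1pr1 was detected in 3.8% of the double-positive-marker cells against 48.2% of the others, Ccr7 in 7.59% against 78.9%, and Itgb7 in 6.33% against 59.9%. Klf2 was detected in 29.1% against 87.9%, S1pr4 in 12.7% against 39.3%, and Cd69, which thymocytes also make during selection, in 12.7% against 39.5%. All 6 genes were therefore detected in a larger share of the other cells, which were also deeper.

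**Figure D1:**
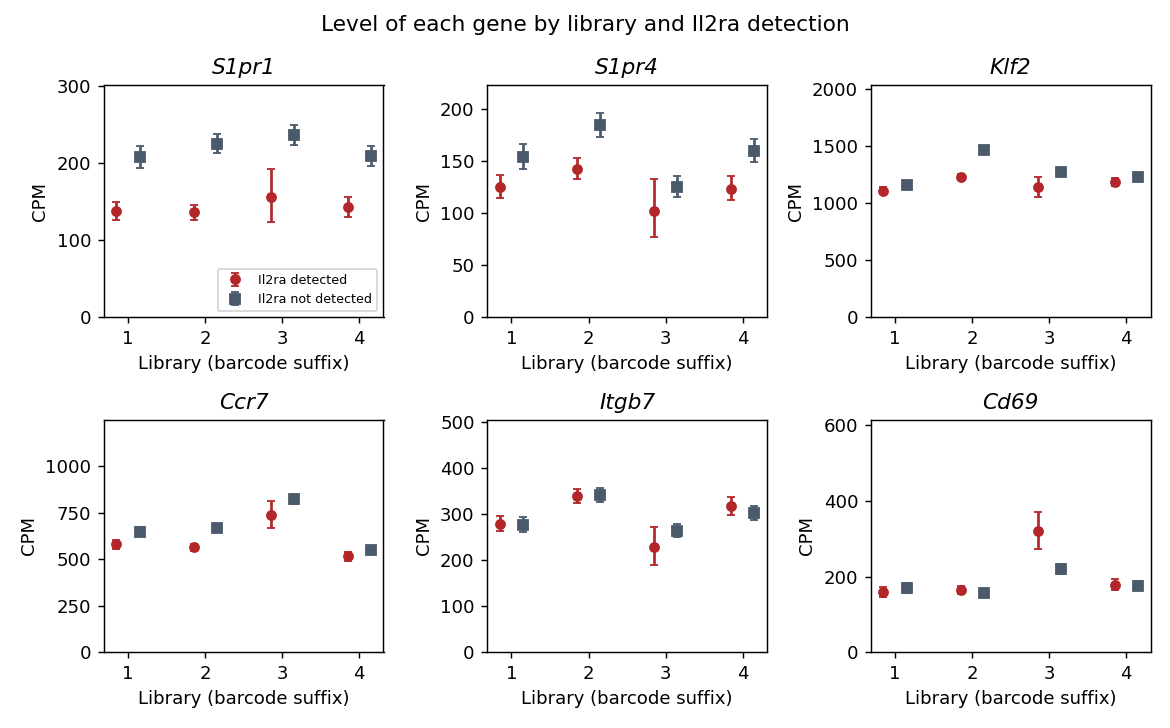
CPM of each gene in each library (x axis), for cells with Il2ra detected (red circles) and not detected (grey squares); bars are 95% exact Poisson intervals. S1pr1 was lower in Il2ra-detected cells of every library, at 136 to 155 CPM against 208 to 236 CPM, and Cd69 of library 3 was at 320 CPM against 220 CPM.

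Cells with Il2ra RNA carried less S1pr1 per UMI. S1pr1 was at 138, 136, 155 and 142 CPM in Il2ra-detected cells of libraries 1 to 4, against 208, 225, 236 and 209 CPM in cells without an Il2ra UMI. The groups did not overlap. Pooled over libraries with a Mantel-Haenszel ratio, the log2 ratio was -0.64 (95% counting interval -0.72 to -0.55), with -0.60, -0.73, -0.60 and -0.55 in the single libraries. Il2ra was detected in 2437 cells (median 4411 UMIs) and not detected in 5836 (median 2783 UMIs), and that difference in depth bears on what follows.

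Among the 6 genes S1pr1 alone passed 1.5-fold lower with one direction in all libraries, where 3.1% of 8071 genes did, and none passed higher, where 3.98% did. Without library 2 its log2 ratio was -0.58, a ratio just short of 1.5-fold, and with cells of 3 or more mitotic-list UMIs left out it was -0.57. S1pr4 was lower in Il2ra-detected cells of each library, at 126, 143, 102 and 124 CPM against 154, 185, 126 and 160 CPM (log2 ratio -0.35, interval -0.43 to -0.26). Klf2 and Ccr7 differed less, with log2 ratios of -0.15 and -0.18, and Itgb7 was at 0.0076 (interval -0.052 to 0.067).

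Cd69 stood apart in library 3 alone. It was at 160, 164, 320 and 179 CPM in Il2ra-detected cells and at 170, 158, 220 and 175 CPM in the rest. The log2 ratio of library 3 was 0.54, from 139 Il2ra-detected cells, against -0.091 to 0.053 in the other libraries. The pooled value of 0.059 became 0.0038 without library 3.

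Pooled over libraries, the level of S1pr1 declined with the number of Il2ra UMIs in a cell. It was 221 CPM in cells with 0, 160 CPM with 1, 140 CPM with 2 and 106 CPM with 3 or more Il2ra UMIs, in 5836, 1233, 573 and 631 cells. After thinning the member counts of the same cells the values were 246, 189, 170 and 129 CPM. Pooled S1pr4 followed with 157, 144, 132 and 111 CPM over the same steps. Library 3 gave 1898 of the 5836 cells with 0 and 4 of the 631 with 3 or more, so these values also carry the library mix. Single libraries had exceptions. S1pr1 in library 4 was at 209, 151, 161 and 109 CPM, and after thinning it was at 250, 187, 195 and 107 CPM in library 1. S1pr4 in library 1 was at 154, 160, 124 and 88.5 CPM. Ccr7, at 676, 572, 623 and 502 CPM, was not steadily lower, and Itgb7 stayed between 298 and 316 CPM. Median depth rose over these steps as well, at 2783, 3984, 4485 and 5328 UMIs.

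S1pr1 per UMI depended strongly on how many UMIs a cell held. With the cells of each library cut into 5 equal bins by UMIs, S1pr1 was at 333, 302, 244, 174 and 104 CPM from the shallowest to the deepest bin (median 1816, 2559, 3297, 4450 and 7342.5 UMIs). The decline was stepwise in libraries 1, 3 and 4, and in library 2 the shallowest 2 bins were level (317 and 317 CPM). Over the same bins Il2ra was detected in 11.8, 18.8, 29.4, 38.2 and 49.2% of cells, and cells with 3 or more mitotic-list UMIs made up 1.27, 0.967, 1.39, 3.99 and 29.4%. Without those mitotic cells the deepest bin was still at 108 CPM of S1pr1, in 1169 cells. The share of S1pr1-positive cells stayed at 41.7 to 51.3% across all bins.

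Of the other 5 genes, Klf2, Ccr7, Itgb7 and Cd69 fell most into the deepest bin and S1pr4 over the deepest 2. Klf2 was at 1598, 1699, 1606, 1346 and 840 CPM, and Ccr7 at 720, 786, 708, 686 and 499 CPM. S1pr4 was at 174, 181, 176, 144 and 119 CPM, Itgb7 at 330, 352, 350, 327 and 251 CPM, and Cd69 at 218, 188, 197, 194 and 149 CPM. None of these showed the steady decline over all bins seen for S1pr1.

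**Figure D2:**
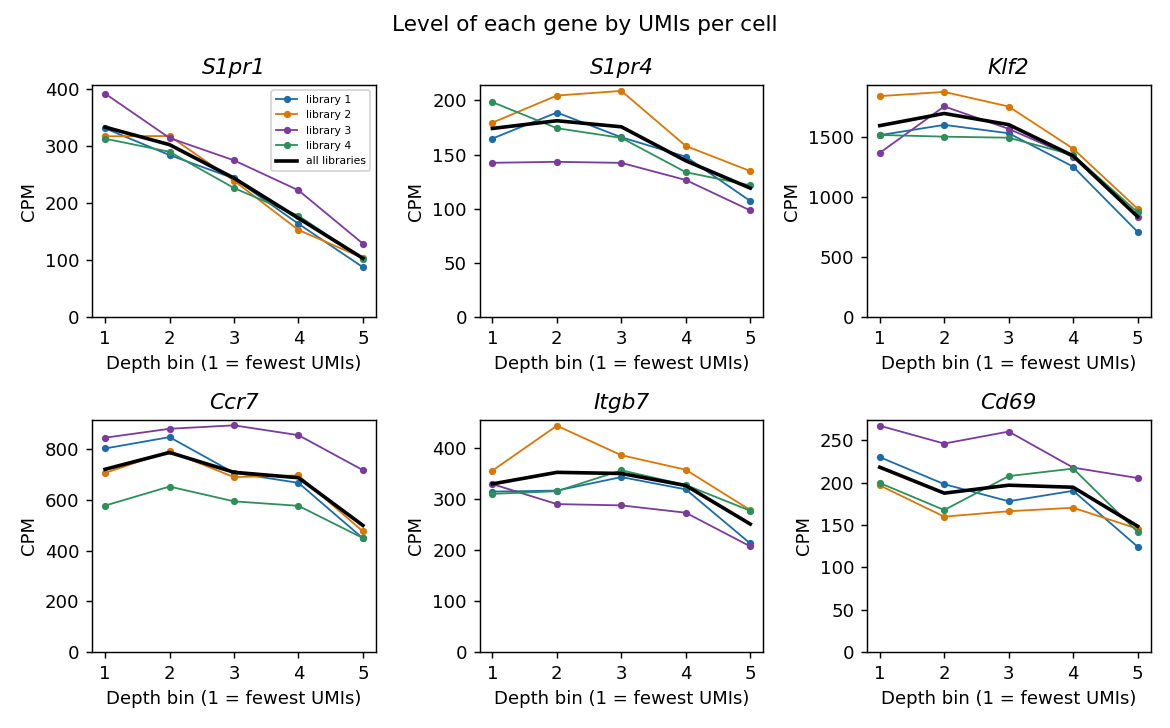
CPM of each gene (y axis) in 5 equal bins of the cells of each library by UMIs per cell (x axis, bin 1 has the fewest), per library (coloured lines) and over all libraries (black). S1pr1 declines over all bins to 104 CPM in the deepest, whereas Klf2 and Ccr7 decline mainly in the last.

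With depth matched, the Il2ra contrast pooled over libraries was smaller but still negative for the 2 sphingosine-1-phosphate receptors and turned for Klf2. When Il2ra and the members were both read from counts thinned to 1811 UMIs, 1371 cells had Il2ra detected and 6076 did not. S1pr1 was then at 172, 173, 191 and 195 CPM in Il2ra-detected cells, against 228, 238, 230 and 224 CPM in the rest, lower in each library (log2 ratio -0.35, interval -0.50 to -0.21). S1pr4 was at 142, 155, 131 and 135 CPM against 163, 183, 133 and 164 CPM (-0.22, interval -0.39 to -0.058), with library 3 almost level.

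Klf2, at equal depth, was higher with Il2ra, at 1462, 1635, 1637 and 1528 CPM against 1292, 1534, 1375 and 1306 CPM (0.16, interval 0.11 to 0.21). Itgb7 was at 345, 416, 309 and 375 CPM against 291, 351, 273 and 306 CPM (0.25, interval 0.15 to 0.36), higher in each library. Cd69 was at 217, 179, 440 and 220 CPM against 174, 170, 222 and 186 CPM (0.29, interval 0.15 to 0.43), again with library 3 farthest apart at 0.99, from 84 Il2ra-detected cells. Ccr7 was close to level, at 0.050 (interval -0.028 to 0.13).

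None of the 6 genes passed 1.5-fold at equal depth, where 1.42% of 5928 genes were higher and 1.59% lower. With libraries split into these depth bins as strata instead, the log2 ratios were -0.21 for S1pr1, -0.20 for S1pr4, 0.13 for Klf2 and 0.14 for Itgb7. Cells with Il2ra by thinned counts still came from deeper cells, with a median of 3946 UMIs before thinning against 3219 UMIs. Within single depth bins, with libraries pooled and not stratified, S1pr1 was lower in Il2ra-detected cells of all 5. The log2 ratios were -0.16, -0.29, -0.10, -0.33 and -0.38. S1pr4 had no common direction in these pooled bins, with 0.32, -0.14, 0.037, 0.042 and -0.34, higher with Il2ra in 3 of the 5. Library 3, with Il2ra detected in 6.82% of its cells, had the lowest S1pr4 of all libraries in each bin. The part of this library mix in the bin ratios was not tested. The stratified values above, -0.21 and -0.20, did not separate the 2 receptors. The part of depth, and of the RNA content of a cell, in the S1pr1 difference cannot be told apart from that of Il2ra itself beyond these values.

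**Figure D3:**
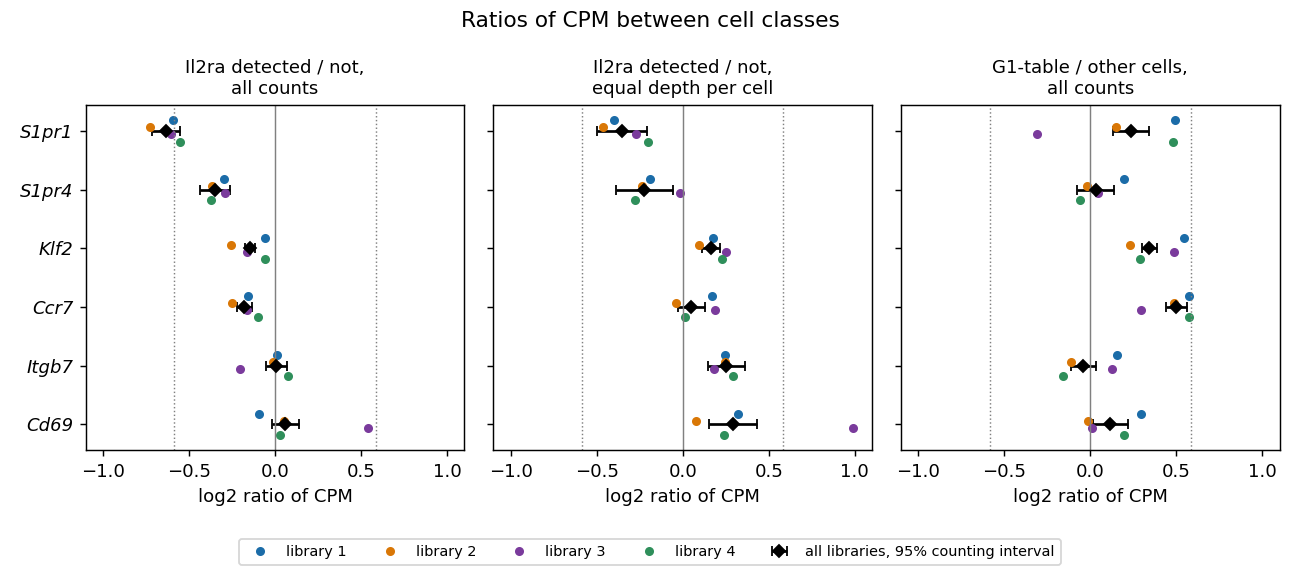
Log2 ratio of CPM (x axis) per gene for Il2ra-detected over not detected cells with all counts (left) and at 1811 UMIs per cell (middle), and for G1-table over other cells (right). Diamonds pool the libraries with 95% counting intervals, dots are single libraries and dotted lines mark 1.5-fold; the S1pr1 ratio is -0.64 with all counts and -0.35 at equal depth, where Klf2 lies above 0.

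Other genes of the egress pathway were read from lists for comparison. Of 11 egress and quiescence transcription factors, 5 were 1.5-fold lower in Il2ra-detected cells and none higher, with a list median log2 ratio of -0.44 against -0.033 over all genes tested. Satb1, a chromatin organiser of thymocytes, was at 246 CPM against 489 CPM, and Tcf7, the TCF1 factor of thymocytes and naive T cells, at 198 CPM against 340 CPM. Klf3, a relative of Klf2, was at 65.0 CPM against 113 CPM, and Foxo1, which drives Klf2 and Ccr7, at 102 CPM against 166 CPM. At equal depth Tcf7 alone of the 11 passed, at 183 CPM against 322 CPM, and the list median was -0.27 against -0.018 over all genes.

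Of the receptor lists, Ccr9, the receptor that guides cells to the gut and within the thymus, was lower with Il2ra (22.3 CPM against 62.1 CPM, log2 ratio -1.39), and Gpr183, an oxysterol receptor, was higher (39.5 CPM against 22.2 CPM, 1.04). Both passed at equal depth too, with -1.25 and 0.96. Among 11 homing selectins and integrins Itga4, the α4 partner of Itgb7, was lower with Il2ra (32.9 CPM against 69.3 CPM, -0.90), Cd44 was higher (39.4 CPM against 21.9 CPM, 0.67), and none of 10 tested passed at equal depth. Of the other S1P receptors, S1pr2 was at 1.92 CPM against 2.94 CPM and S1pr5 had no UMI.

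Members of the IL-2 and TCR response lists were more often higher than lower with Il2ra at either depth, with exceptions among the TCR response genes. Of 12 tested IL-2 and STAT5 response genes 5 were higher and none lower with Il2ra, and of 11 tested at equal depth also 5, among them the kinase gene Pim1 (336 CPM against 149 CPM, log2 ratio 1.09) and the receptor β chain Il2rb (283 CPM against 173 CPM, 0.62). Of 12 tested TCR response genes 5 were higher with all counts and 1 was lower, the early response factor Egr2 (10.8 CPM against 16.4 CPM, -0.72), while its relative Egr1 was at 27.4 CPM against 37.7 CPM (-0.42). At equal depth 3 of 10 TCR response genes were higher, Cd83, Myc and Tnfrsf4, and none lower. Mitotic genes, 7 of 14 higher with all counts, were 0 of 9 higher and 1 lower at equal depth, with a list median of -0.16. Their summed level was then 449, 456, 59.2 and 354 CPM with Il2ra in libraries 1 to 4. Without Il2ra it was 393, 607, 42.4 and 416 CPM, higher in libraries 2 and 4 and lower in libraries 1 and 3. Cd8a and Cd8b1, coreceptor genes of double-positive thymocytes, were lower with Il2ra in both settings (at equal depth 3.22 CPM against 18.6 CPM for Cd8a), and their part in the values of the 6 genes was not tested.

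The second deposited table names 7231 cells as G1 cells, and 1042 cells of the count table are not in it. Ccr7 was higher in the G1-table cells of every library, at 656, 652, 828 and 564 CPM against 441, 466, 674 and 379 CPM in the other cells (log2 ratio 0.50, interval 0.44 to 0.56). Klf2 was also higher in each, at 1211, 1391, 1297 and 1250 CPM against 831, 1186, 927 and 1022 CPM (0.34, interval 0.30 to 0.38). Neither group overlapped the other for Klf2, whereas for Ccr7 the other cells of library 3 lay above the G1-table cells of libraries 1, 2 and 4.

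S1pr1 had no common direction, at 184, 184, 223 and 189 CPM in G1-table cells against 131, 167, 277 and 136 CPM in the other cells. Library 3 alone was lower, with a log2 ratio of -0.31, and its other cells also carried 20193 CPM of the haemoglobin list against 52.9 CPM in its G1-table cells. S1pr4 (0.031), Itgb7 (-0.039) and Cd69 (0.12) differed little. None of the 6 genes passed 1.5-fold in either direction, where 3.51% of 8071 genes were higher and 7.36% lower.

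The cells outside the G1 table were of several kinds. Of the 1042, 409 held 3 or more mitotic-list UMIs (median 9531 UMIs) and 8 others held 2 or more double-positive-marker UMIs. The remaining 625 were neither (median 2072 UMIs, median 4.51% mitochondrial). With libraries pooled, S1pr1, Klf2, Ccr7 and Cd69 differed beyond counting error between the 409 and the 625 cells and S1pr4 and Itgb7 did not. Library 3 gave 9 of the 409 cells but 242 of the 625, so pooled values also carry the library mix. Within each library every one of these genes was lower in the mitotic cells than in the 625. The 8 cells held 1 UMI of Itgb7, at 48.9 CPM (interval 1.24 to 272). Pooled S1pr1 was at 118 CPM in the mitotic ones, 278 CPM in the 625 and 193 CPM in the G1-table cells. Ccr7 was at 381, 682 and 664 CPM in the same order, S1pr4 at 145, 151 and 147 CPM and Itgb7 at 312, 325 and 301 CPM. Mitotic-list cells inside the G1 table, 204 of them (median 9125 UMIs), had 73.5 CPM of S1pr1 and 505 CPM of Ccr7. Mitotic cells on both sides were thus below the S1pr1 level of all G1-table cells, but they were also deep cells. In the deepest depth bin (median 7342.5 UMIs), cells with fewer mitotic-list UMIs were at 108 CPM of S1pr1. The part of depth in the low S1pr1 of mitotic cells was not tested.

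With mitotic-list cells left out of both sides, the S1pr1 log2 ratio of G1-table over other cells turned to -0.43, that of Cd69 to -0.15, and that of Ccr7 shrank to 0.044. The 625 other cells of neither kind were shallower, with a median of 2072 UMIs against 3157 UMIs in the G1-table cells. With depth bins as strata and mitotic-list cells kept, the log2 ratios were -0.085 for S1pr1, -0.015 for Cd69 and 0.34 for Ccr7. All 14 mitotic genes were lower in the G1-table cells, with a median of -5.08, and 9 of 13 S phase genes were lower and 1 higher. Of the 10 lists of pathway and response genes, at most 2 members passed in any list, among them Cxcr4, a retention receptor of thymocytes, which was lower in G1-table cells (8.08 CPM against 14.9 CPM), and Socs2 and Gpr83, which were higher.

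**Figure D4:**
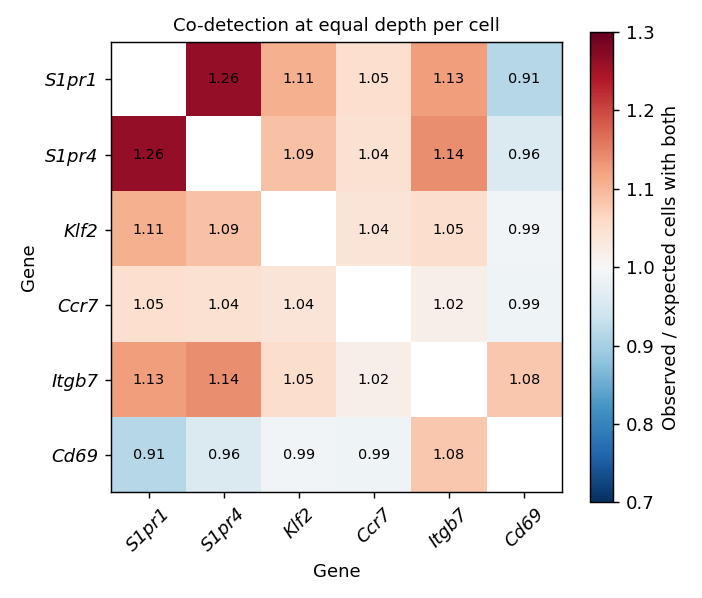
Observed over expected number of cells with both genes detected, for the 15 pairs, over 7447 cells thinned to 1811 UMIs; expected numbers assume independence within each library. S1pr1 with S1pr4 is highest at 1.26 and S1pr1 with Cd69 lowest at 0.91.

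At equal depth S1pr1, S1pr4, Klf2 and Itgb7 were found in the same cells more often than independence gives, whereas of the 5 pairs with Cd69 only that with Itgb7 was. S1pr1 and S1pr4 were detected together in 698 cells, where 553 were expected within libraries, a ratio of 1.26 (exact Poisson interval 1.17 to 1.36), with 1.39, 1.23, 1.23 and 1.24 in libraries 1 to 4. S1pr4 with Itgb7 gave 1.14 and S1pr1 with Itgb7 1.13. S1pr1 and Klf2 were together in 1982 cells against 1792 expected, a ratio of 1.11, and S1pr4 with Klf2 gave 1.09. All 10 pairs without Cd69 were above 1 in every library, but pairs of Ccr7 were near 1, at 1.02 to 1.05, and the intervals of 3 of these 4 held 1.

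S1pr1 and Cd69 were together in 522 cells against 571 expected, a ratio of 0.91 (interval 0.84 to 0.996), with 1.00, 0.87, 0.89 and 0.93 in libraries 1 to 4. With unthinned counts that ratio was nearer to 1, at 0.98, and at 0.97 with depth bins as strata. Itgb7 was the one gene found with Cd69 more often than expected in every library, at 1.08 (interval 1.01 to 1.16). Pairs of detected genes share a cell's RNA content, which thinning to equal UMIs does not remove.

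Counting S1pr1, S1pr4, Klf2, Ccr7 and Itgb7 together, 5.20% of the 7447 thinned cells had none detected, 17.6% had 1, 31.6% had 2, 29.1% had 3, 13.7% had 4 and 2.82% had all 5. Cd69 was detected in 25.1, 25.3, 25.8, 24.8, 23.6 and 25.2% of the cells at these 6 steps. The Cd69 share was therefore flat over the number of egress genes detected.

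Detection of S1pr1 and Cd69 at equal depth sorts cells into 4 states. S1pr1 without Cd69 was found in 1756 cells (23.6%), both in 522 (7.01%), Cd69 without S1pr1 in 1344 (18.0%) and neither in 3825 (51.4%), and detection at this depth misses many cells that hold either RNA. By library, S1pr1 without Cd69 made up 22.2, 24.9, 23.2 and 23.5%, with overlapping intervals. Cd69 without S1pr1 made up 17.2, 17.0, 20.6 and 17.8%.

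With Il2ra detected, S1pr1 without Cd69 was found in 19.7% of cells against 24.5% without Il2ra, lower in each library (log2 ratio of shares -0.33, interval -0.50 to -0.16). Cd69 without S1pr1 was found in 21.2% against 17.3%, higher in each library (0.35, interval 0.18 to 0.52). Within a single library the 2 intervals were apart only for the first state in library 2, and those of library 3 were widest, with 84 Il2ra-detected cells. Leaving out each library in turn gave -0.37 to -0.29 for the first state and 0.31 to 0.41 for the second.

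**Figure D5:**
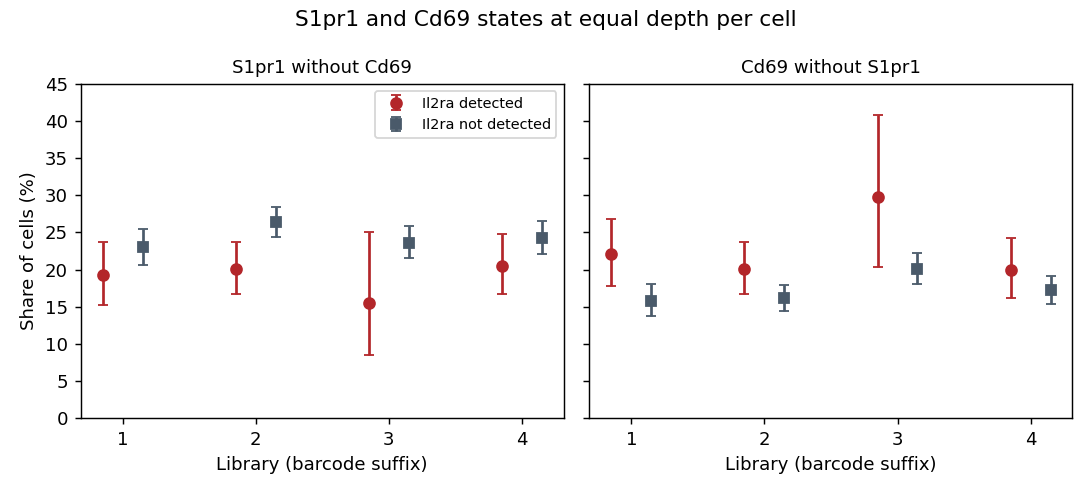
Share of cells (y axis, %) with S1pr1 but not Cd69 (left) and with Cd69 but not S1pr1 (right) at 1811 UMIs per cell, by library, for cells with Il2ra detected (red circles) and not detected (grey squares); bars are 95% exact binomial intervals. In each library the first share was lower and the second higher with Il2ra detected, overall 19.7% against 24.5% and 21.2% against 17.3%.

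Cells with S1pr1 but not Cd69 also carried more of the other egress genes than cells with Cd69 but not S1pr1. S1pr4 was at 219, 224, 169 and 210 CPM in the S1pr1 cells of libraries 1 to 4, against 146, 141, 92.6 and 143 CPM in the Cd69 cells, with no overlap (log2 ratio 0.65, interval 0.46 to 0.85). It was the one of the 4 remaining genes to pass 1.5-fold, where 0.519% of 3469 genes were higher and 2.1% lower. Klf2 was at 1730, 1986, 1706 and 1726 CPM against 1139, 1253, 1286 and 1166 CPM, also without overlap (0.57, interval 0.50 to 0.63).

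Ccr7 was at 738 CPM against 648 CPM (log2 ratio 0.20, interval 0.10 to 0.29) and higher in each library. Itgb7, at 365 CPM against 323 CPM (0.16, interval 0.030 to 0.29), was higher in libraries 2, 3 and 4 and -0.046 in library 1. S1pr1 and Cd69 define the states and are not read between them. The Cd69 cells had more UMIs before thinning, with a median of 3488 against 2971.5 in the S1pr1 cells.

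Of the lists, 5 of 8 tested TCR response genes were lower in the S1pr1 cells and none higher. Cd83 was at 16.4 CPM against 93.3 CPM (log2 ratio -2.53), and the early response genes Nr4a1 and Egr1 were at 68.2 CPM against 213 CPM (-1.63) and at 24.5 CPM against 67.0 CPM (-1.45). Klf3 was higher in the S1pr1 cells (163 CPM against 89.1 CPM, 0.88), as was Itga4 (84.3 CPM against 53.4 CPM, 0.69). Of 6 tested S phase genes 5 were lower in the S1pr1 cells, among them Mcm5 (28.9 CPM against 56.7 CPM, -1.02), and their part in the differences of Klf2 and S1pr4 was not tested.

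The genes most like each member were taken by Pearson r of thinned counts (log2 of count plus 1, centred within libraries) over 7447 cells and 4065 genes detected in at least 5% of them. All values were low, and they share the counting noise of sparse data. For S1pr1 the 3 highest were Malat1, a nuclear RNA (0.21), Klf2 (0.19) and Ms4a4b (0.17), and for S1pr4 they were Tmsb4x, an actin-binding peptide gene (0.13), Klf2 (0.12) and Ms4a6b (0.11). For Klf2 they were Tmsb4x (0.29), the survival gene Bcl2 (0.26) and the glucocorticoid-induced Tsc22d3 (0.22). Klf2 was also among the 3 for Ccr7 (0.14, beside Shisa5 and Tsc22d3) and for Itgb7 (0.14, beside Tmsb4x and Cd52). Cd69 had other neighbours, Nr4a1 (0.14), Tagap (0.13) and Egr1 (0.12).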

How the data were processed

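The submitters' processing notes name Cell Ranger 2.0.2, CASAVA 2.20, R 3.4.1 and mm10; the sources used here do not give a cell filter. The authors deposited UMI counts for 27998 genes in 8273 cells (795 to 32737 UMIs per cell) and log2 values for 9571 genes in 7231 G1 cells, which equal log2 of count over a factor per cell, plus 1. Symbols came from GENCODE M21 (27645 identifiers). The members, lists and comparisons were chosen with earlier results of these data known. Genes named beyond the members are, per list, at most 4 past the fold in each direction, by size.

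CPM were computed from summed UMIs with exact Poisson intervals and shares with exact Clopper-Pearson intervals, at 95%; both cover counting error only. Ratios were Mantel-Haenszel ratios over 4 libraries, except those within single depth bins, which pooled the cells of all libraries. A gene passed the fold at 1.5-fold with the same direction in each library (20 cells per side, 200 UMIs per gene); pooled ratios can differ from quotients of the CPM printed. On simulated data the contrast was checked for recovery of known folds. No doublet caller was run; an alternative left out the deepest 5% of cells. Alternatives covered scaling, filters, depth, weighting and libraries. Computation used pandas 2.3.3, numpy 2.4.6 and scipy 1.17.1 under Python 3.11.15, with matplotlib 3.10.9.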

Additional observations from a re-analysis of the deposited data

How the results depend on the processing

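No paired analysis was possible because each genotype has 1 sample and no library is tied to one; this concerns the genotypes, since contrasts between classes of cells were made within each library and then pooled. The count of members 1.5-fold lower with Il2ra, 1 with all counts, was 0 with each cell counted alike, with thinned counts, without mitotic-list cells, without the deepest 5% of cells, at 2-fold, with 5 depth bins as strata (added after seeing the data), with Il2ra read from thinned counts and with the authors' log2 values, and 0 to 1 on leaving out each library in turn (0 without library 2). The authors' log2 values gave a difference of mean log2 values over G1-table cells, not a ratio of CPM. The 1.5-fold line is not a like threshold there. The S1pr1 log2 ratio stayed negative in all 18 alternatives, at -0.83 to -0.16, and that of S1pr4 at -0.48 to -0.042. The weakest values, -0.16 and -0.042, were those differences of means. The weakest among the other alternatives were -0.21 and -0.20, with depth strata. Klf2 reversed to 0.0061 (cells alike), 0.0098 (thinned counts), 0.0098 (without the deepest 5%), 0.13 (depth strata), 0.16 (Il2ra from thinned counts) and 0.087 (log2 values), and Ccr7 to 0.050 (Il2ra from thinned counts). For G1-table over other cells, S1pr1 and Cd69 reversed to -0.021 and -0.12 (cells alike), -0.43 and -0.15 (without mitotic-list cells), -0.13 and -0.12 (without the deepest 5%), -0.085 and -0.015 (depth strata) and -0.50 and -0.18 (other cells without mitotic-list and double-positive-marker cells). The count of members with a 1.5-fold spread over libraries, 1 with all cells, was 0 with cells alike, without mitotic-list cells, without Il2ra-detected cells and in G1-table cells. Co-detection of S1pr1 with S1pr4 was 1.15 unthinned and 1.14 in depth strata, and of S1pr1 with Klf2 1.06 in depth strata, while S1pr1 with Cd69 was 0.98 unthinned and 0.97 in depth strata. The alternatives that thin counts or leave out cells test fewer UMIs; beyond that the cause of the changes was not tested. With 1 unassigned library per suffix, intervals cover counting error, not the spread between animals.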

Other observations

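The genes deleted in the 2 mutant strains were also read in the libraries, which no label assigns to a genotype. Il2 had 294, 340, 244 and 306 UMIs in libraries 1 to 4, and Il15 had 8, 5, 1 and 2. No library was at 0 for either gene, and a 3' count can come from RNA outside a deleted part, so these values check no label.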
